A study of Mus musculus with 3 samples.

Results

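The interferon regulatory factors described here were found by symbol and are 8 of the 32285 genes in the tables: Irf1, Irf2, Irf3, Irf4, Irf5, Irf7, Irf8 and Irf9. All 8 passed the minimum for comparison (a mean of 10 CPM, the UMIs (unique molecules) of a gene scaled to a class total of 1000000) in at least 1 class. The cells came from femur and tibia marrow of C57BL/6J mice, cleaned on a Ficoll gradient, with 1 single-cell 3' library for each of 3 groups. Sham is the control, MI stands for myocardial infarction by tying the left anterior descending coronary artery, and MI-E is labelled as MI with EMPA, an abbreviation the labels do not spell out. The same surgical text, with the artery tied, is attached to all 3 libraries, Sham included. Gradient cleaning is common to all groups and thins out dense cells. The number of animals in each library, their age and sex, and the time and dose are not given in the sources used here.

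Interferon regulatory factors are transcription factors that bind DNA through a shared N-terminal domain and read sites built around the letters GAAA. Irf3 and Irf7 are activated after viral sensing and switch on type I interferon genes, and Irf7 is itself induced by interferon. Irf9 joins Stat2 in the complex that carries the type I interferon signal to the nucleus. Irf1 is induced by interferon gamma and activates antigen presentation genes, while Irf2 can oppose it at the same sites. Irf5 acts downstream of Toll-like receptors in myeloid and B cells. Irf8 and Irf4 are lineage factors that bind together with Spi1 or Batf family proteins: Irf8 directs monocyte and dendritic cell development, and Irf4 acts in pre-B cells, plasma cells and a subset of dendritic cells.

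The members lie on 6 mouse chromosomes (GRCm38, which is mm10; GENCODE gene bounds). Irf1 is at chromosome 11, 53770014 to 53778374, and Irf2 at chromosome 8, 46739732 to 46847458. Irf3 is at chromosome 7, 44997648 to 45002848, and Irf4 at chromosome 13, 30749226 to 30766976. Irf5 is at chromosome 6, 29526625 to 29541871, and Irf8 at chromosome 8, 120736358 to 120756694. Irf7, on the minus strand, is at chromosome 7, 141262706 to 141266481, and Irf9 at chromosome 14, 55603571 to 55610030. The bases just upstream of 4 members are shown because these genes are known targets of interferon signalling and differed between libraries by different amounts. They are RefSeq windows of GRCm38.p6, written 5′ to 3′ on the gene's strand and ended before the gene bound. Capitals mark matches to 2 letter patterns searched on both strands, GAAA followed by any 2 bases and GAAA again (read by interferon regulatory factors) and TTCNNNGAA (read by STAT proteins, and equal to its own reverse complement).
Irf1, chr11:53769764-53770013, plus strand: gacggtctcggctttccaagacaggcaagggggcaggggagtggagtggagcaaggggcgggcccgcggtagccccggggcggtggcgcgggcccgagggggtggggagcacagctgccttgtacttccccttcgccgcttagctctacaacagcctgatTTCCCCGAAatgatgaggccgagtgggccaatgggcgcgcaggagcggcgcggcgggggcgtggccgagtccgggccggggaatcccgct
Irf2, chr8:46739495-46739731, plus strand: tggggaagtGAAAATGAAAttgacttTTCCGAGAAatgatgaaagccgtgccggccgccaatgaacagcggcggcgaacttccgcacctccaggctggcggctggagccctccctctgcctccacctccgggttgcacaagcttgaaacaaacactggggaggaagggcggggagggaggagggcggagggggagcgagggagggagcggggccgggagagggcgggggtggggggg
Irf7, chr7:141266482-141266674, minus strand: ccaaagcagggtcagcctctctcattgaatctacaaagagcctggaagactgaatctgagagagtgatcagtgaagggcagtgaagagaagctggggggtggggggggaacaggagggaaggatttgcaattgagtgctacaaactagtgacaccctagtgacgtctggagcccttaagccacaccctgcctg
Irf8, chr8:120736108-120736357, plus strand: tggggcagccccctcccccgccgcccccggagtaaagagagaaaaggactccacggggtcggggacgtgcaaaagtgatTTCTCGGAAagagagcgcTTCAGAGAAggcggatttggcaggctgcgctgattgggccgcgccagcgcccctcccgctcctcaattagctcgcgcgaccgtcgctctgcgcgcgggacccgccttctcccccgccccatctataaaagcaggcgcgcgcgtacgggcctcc

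All 8 members matched a RefSeq window, and 3 of them had 2 windows, for 11 windows in all. Over the 250 bases before the start, TTCNNNGAA was found once for Irf1, beginning 90 bases before it. It was found once for Irf2 (224 bases before) and 2 times for Irf8 (171 and 153 bases before). The paired GAAA pattern was found for Irf2 only, 241 bases before its start. Among all 32851 windows of that length, 7.02% held TTCNNNGAA and 2.98% held the paired GAAA pattern. A match is a description of letters and not a site, and the absence of one from the windows of Irf3, Irf4, Irf5, Irf7 and Irf9 says nothing about regions outside them.

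The 3 libraries held 21273 (Sham), 20459 (MI) and 19617 (MI-E) cells after filters and doublet removal, with medians of 2132, 3113 and 2582 UMIs per cell. Between 156 and 176 cell barcodes were shared by any pair of libraries. Cells were clustered without the Irf genes and classes were named from marker genes, so a class is called "-like". Comparisons use the 15 classes that reached 200 cells in all 3 libraries, and 7 smaller classes are given as values. With 1 library per group no difference can be tested: an interval below is an exact 95% interval for counting error only, and the spread between animals is not known. Within several classes the libraries occupied different sub-clusters, which may then reflect the library as much as a cell state. For the monocyte, neutrophil and mature B classes the sub-clusters are given beside the values below.

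**Figure D1:**
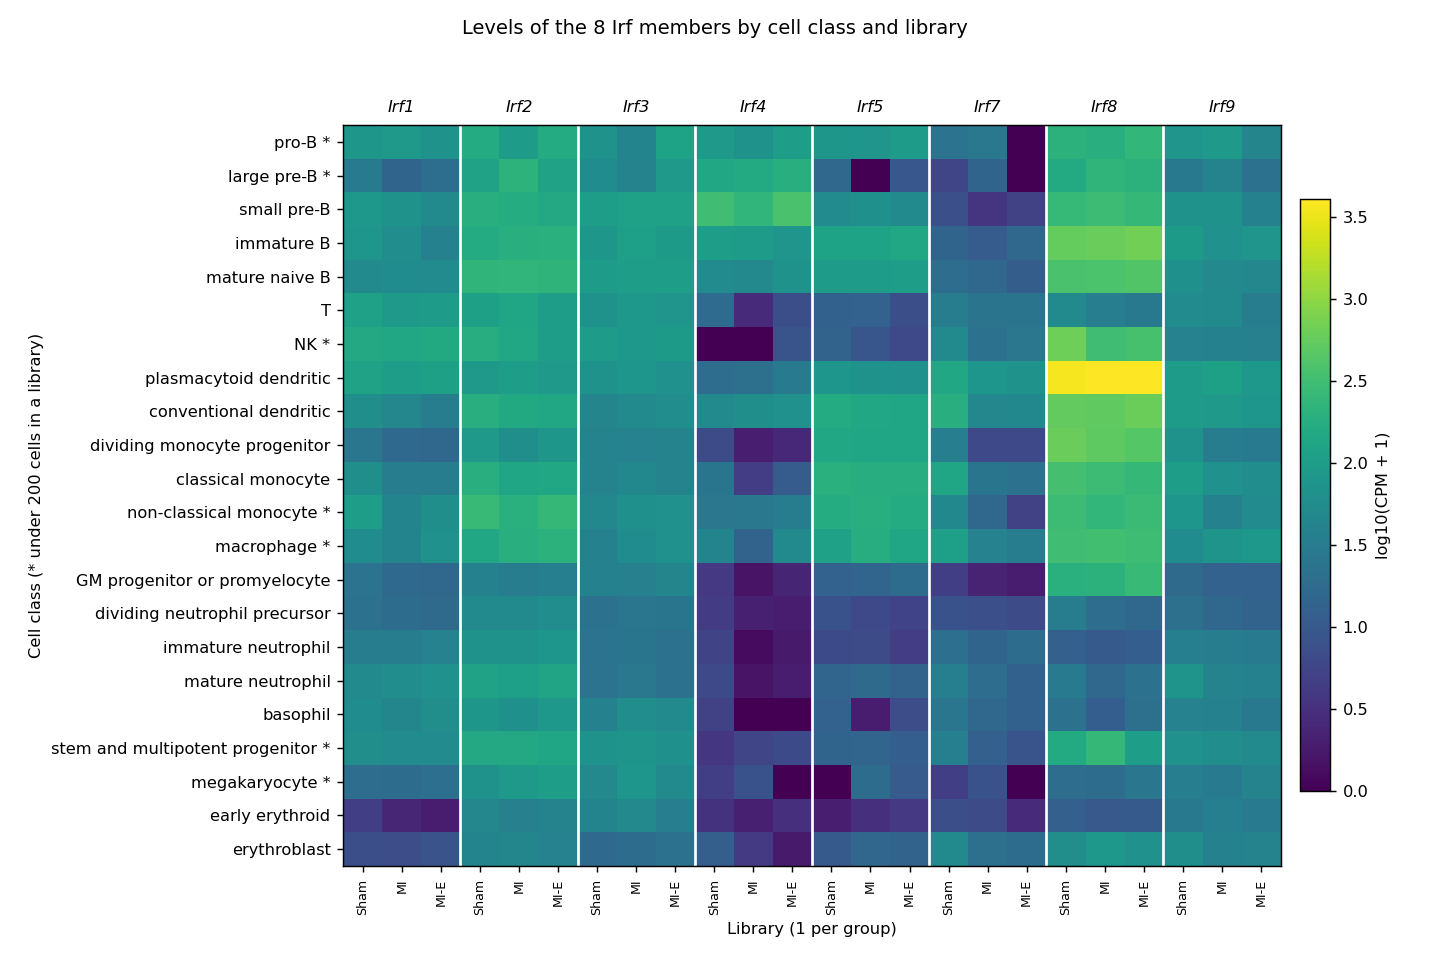
Level of each member (column groups) in each library (columns) and cell class (rows), as log10(CPM + 1) of the class total; asterisks mark classes with under 200 cells in a library. Irf8 is brightest in plasmacytoid dendritic-like cells, between 3628 and 4040 CPM, Irf4 in small pre-B-like cells, between 234 and 371 CPM, and the Irf7 column of Sham is brighter than those of MI and MI-E in monocyte-like and dendritic-like rows.

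Irf8, the lineage factor of mononuclear phagocytes, had its highest level in plasmacytoid dendritic-like cells: 3628 CPM in Sham, 4014 CPM in MI and 4040 CPM in MI-E. After thinning every cell to 1000 UMIs, 96.0% (94.5 to 97.2, exact Clopper-Pearson) of the Sham cells held an Irf8 UMI, against 95.2% for MI and 95.9% for MI-E; without thinning the shares were 99.5%, 98.2% and 97.6%. The same thinned share in immature neutrophil-like cells, a class in which Irf8 is low, was between 0.913% and 1.61% (3.46% to 4.0% unthinned) at similar median depths (2664 to 3121 against 3137 to 3405 UMIs). The dendritic share was far above that background. Immature B-like cells came next in order, with 560.0, 601 and 696 CPM in Sham, MI and MI-E. Conventional dendritic-like cells had 551, 531 and 627 CPM, so the ranges of these neighbours overlapped over the 3 libraries. Dividing monocyte progenitor-like cells had 613, 512 and 449 CPM, and classical monocyte-like cells 344, 299 and 254 CPM. Of the 14 neighbouring pairs in the order of 15 classes, the 3 libraries of 1 class were all above the 3 of the next in 6 pairs and overlapped in 8.

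Irf8 was higher in the progenitor class than in the neutrophil classes. Granulocyte-monocyte progenitor or promyelocyte-like cells had 195 CPM in Sham, 209 CPM in MI and 275 CPM in MI-E. Dividing neutrophil precursor-like cells had 32.0, 18.2 and 15.6 CPM, and immature neutrophil-like cells 11.8, 9.54 and 11.1 CPM. The progenitor class held 3 sub-clusters that differed widely in Irf8. In the one led by Mpo, Prtn3 and Ctsg (primary granule genes) Irf8 was 604 CPM in Sham, 410.0 CPM in MI and 466 CPM in MI-E. In the ones led by Fcnb and Elane and by Elane and Mpo it was between 6.88 and 24.1 CPM. By marker genes, the next closest class was classical monocyte for the Mpo-led sub-cluster and neutrophil for each of the others. The Mpo-led sub-cluster made up 28.5% of the Sham class, 46.0% for MI and 50.4% for MI-E. Inside this sub-cluster Irf8 was lower in MI than in Sham, while the ratio over the whole class was 1.07 (1.01 to 1.13).

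**Figure D2:**
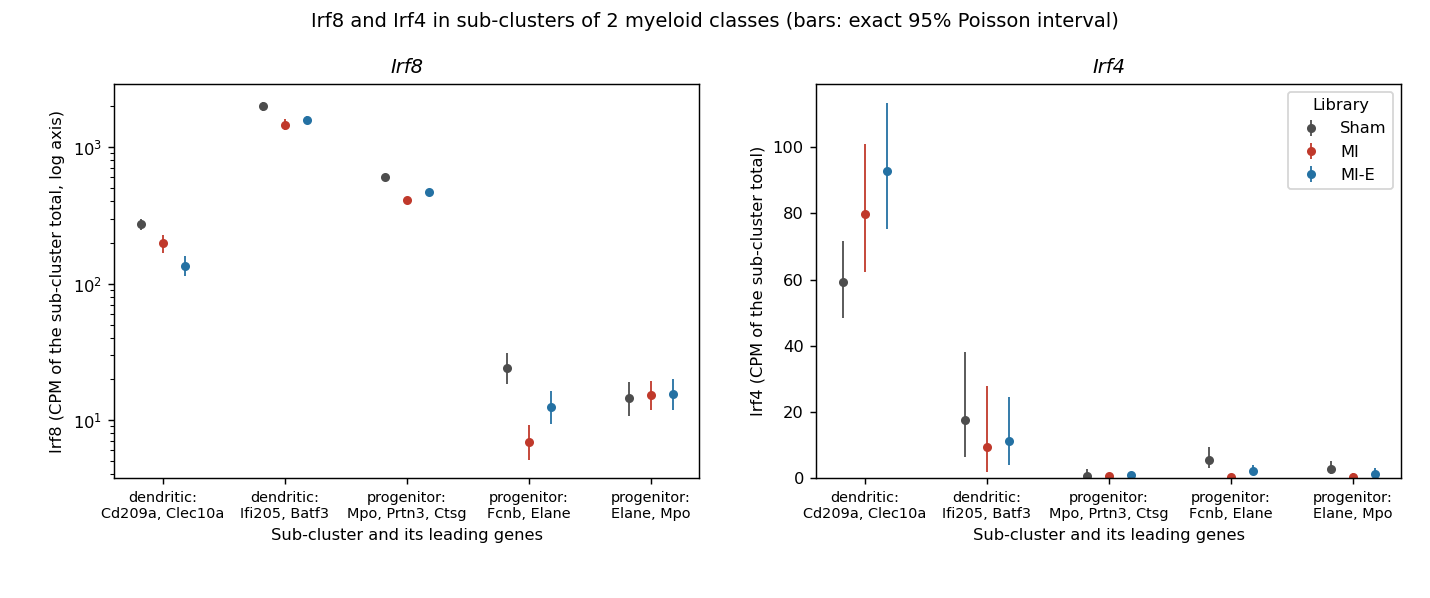
Irf8 (left, log axis) and Irf4 (right) in CPM of the sub-cluster total for the 2 conventional dendritic-like sub-clusters and the 3 progenitor sub-clusters, by library; points are levels and bars exact 95% Poisson intervals. Irf8 stands at 1460 to 2001 CPM in the sub-cluster led by Ifi205 and Batf3 and Irf4 at 59.2 to 92.9 CPM in the one led by Cd209a and Clec10a.

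Irf8 and Irf4 divided the conventional dendritic-like class. The sub-cluster led by Ifi205, Cst3 and Batf3, a factor of the cross-presenting dendritic subset, had Irf8 at 2001 CPM in Sham (66 cells), 1460 CPM in MI (63 cells) and 1577 CPM in MI-E (94 cells). Its Irf4 was 17.5, 9.52 and 11.2 CPM. The sub-cluster led by Cd209a and Clec10a, both lectin genes, had Irf8 at 273, 197 and 136 CPM and Irf4 at 59.2, 79.8 and 92.9 CPM in Sham, MI and MI-E. By marker genes, the next closest class of both sub-clusters was classical monocyte. S100a4, Cx3cr1 and Ccr2 were among the genes that led the Cd209a sub-cluster over other families of clusters. The part of monocyte-like cells in it was not tested. No library of either sub-cluster overlapped the other in Irf8 or in Irf4. Within the Cd209a sub-cluster Irf8 was lowest and Irf4 highest in MI-E, where the Irf8 interval (114 to 160) lay below that of Sham (249 to 298).

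**Figure D3:**
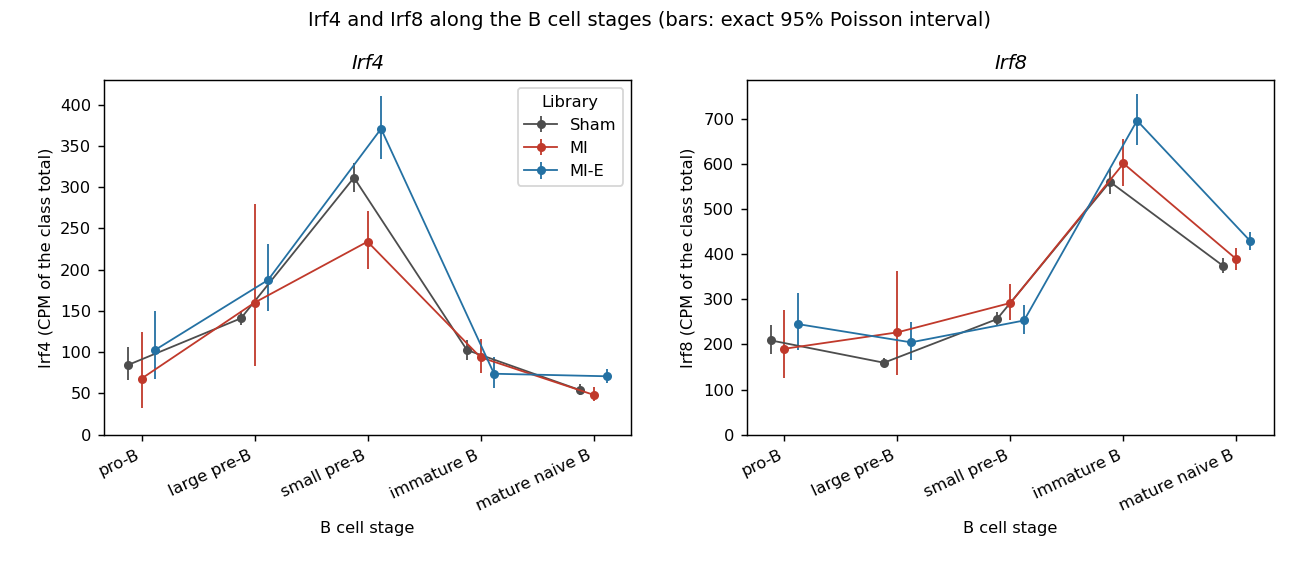
Irf4 (left) and Irf8 (right) in CPM of the class total along 5 B cell stages, 1 line per library with exact 95% Poisson intervals. Irf4 is highest at the small pre-B stage (312, 234 and 371 CPM in Sham, MI and MI-E) and Irf8 at the immature B stage (560.0, 601 and 696 CPM).

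In the B lineage Irf4 and Irf8 were highest at successive stages. Irf4, which acts when the light chain locus is opened for recombination, was 84.5, 68.0 and 103 CPM in pro-B-like cells of Sham, MI and MI-E and 141, 160.0 and 188 CPM in large pre-B-like cells. It was highest in small pre-B-like cells, at 312 CPM (295 to 329) in Sham, 234 CPM (201 to 271) in MI and 371 CPM (334 to 411) in MI-E. Immature B-like cells had 103, 93.8 and 73.9 CPM, and mature naive B-like cells 54.1, 48.4 and 70.8 CPM. The small pre-B level was above every other stage in each library. The pro-B and large pre-B classes were small (27 large pre-B-like cells in MI), so their levels carry wide intervals. Among small pre-B-like cells thinned to 1000 UMIs, 25.1% (23.4 to 26.9) held an Irf4 UMI in Sham, against 19.4% (15.7 to 23.6) for MI and 30.0% (26.1 to 34.1) for MI-E. The unthinned shares were 31.3%, 22.7% and 33.7%. In granulocyte-monocyte progenitor or promyelocyte-like cells, a class low in Irf4, the thinned share was at most 0.201% (median depths before thinning of 15834 to 18705 against 1097 to 1228.5 UMIs). Irf8 was 209, 190.3 and 245 CPM in pro-B-like cells, 159, 227 and 205 CPM in large pre-B-like cells and 256, 292 and 253 CPM in small pre-B-like cells. It was highest in immature B-like cells (above) and 374, 389 and 429 CPM in mature naive B-like cells. In these mature cells 89.9% of Sham cells lay in 1 sub-cluster and 90.5% of MI cells in another, and Irf8 was 379 and 379.9 CPM in those respective groups.

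Irf5, the Toll-like receptor effector, was highest in mononuclear phagocyte and B cell classes. It was 194, 174 and 177 CPM in classical monocyte-like cells of Sham, MI and MI-E and 140, 134 and 129 CPM in dividing monocyte progenitor-like cells. Conventional dendritic-like cells had 167, 140 and 137 CPM and immature B-like cells 122, 124 and 138 CPM. T-like cells had 12.1, 12.5 and 6.37 CPM and mature neutrophil-like cells 13.9, 16.5 and 13.1 CPM. Thinned shares of monocyte-like cells with an Irf5 UMI were 17.4%, 15.6% and 16.7% against 0.270% to 1.63% in T-like cells. Along B stages it was 53.5, 64.4 and 51.8 CPM in small pre-B-like cells and 97.8, 97.5 and 103 CPM in mature naive B-like cells.

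Irf2, which can repress at interferon sites, was highest among the 15 classes in mature naive B-like cells at 229, 239 and 222 CPM, followed by immature B-like and small pre-B-like cells. Its lowest levels among the 15 classes were 38.0, 32.6 and 34.5 CPM in granulocyte-monocyte progenitor or promyelocyte-like cells. Among the 15 classes Irf1, the interferon gamma effector, was highest in T-like (115, 88.2 and 98.1 CPM) and plasmacytoid dendritic-like cells (119.6, 103 and 111 CPM), whose ranges overlapped. It was lowest in early erythroid-like cells, between 0.857 and 3.73 CPM. Irf3, which is present before any signal and is activated by phosphorylation, was between 16.0 and 21.4 CPM in erythroblast-like cells and between 105 and 116 CPM in small pre-B-like cells. Of the 14 neighbouring class pairs of Irf3, 11 overlapped over the 3 libraries.

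Between MI and Sham, 6 of 101 pairs of member and class were at least 2-fold lower in MI and 0 were at least 2-fold higher. Over all genes and the 15 classes, 2.23% of 107511 pairs were that much lower and 3.54% higher. Of the 6, 4 were Irf7. The others were Irf4 in classical monocyte-like cells and Irf9 in dividing monocyte progenitor-like cells. No pair of Irf1, Irf2, Irf3, Irf5 or Irf8 was past 2-fold in this comparison.

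**Figure D4:**
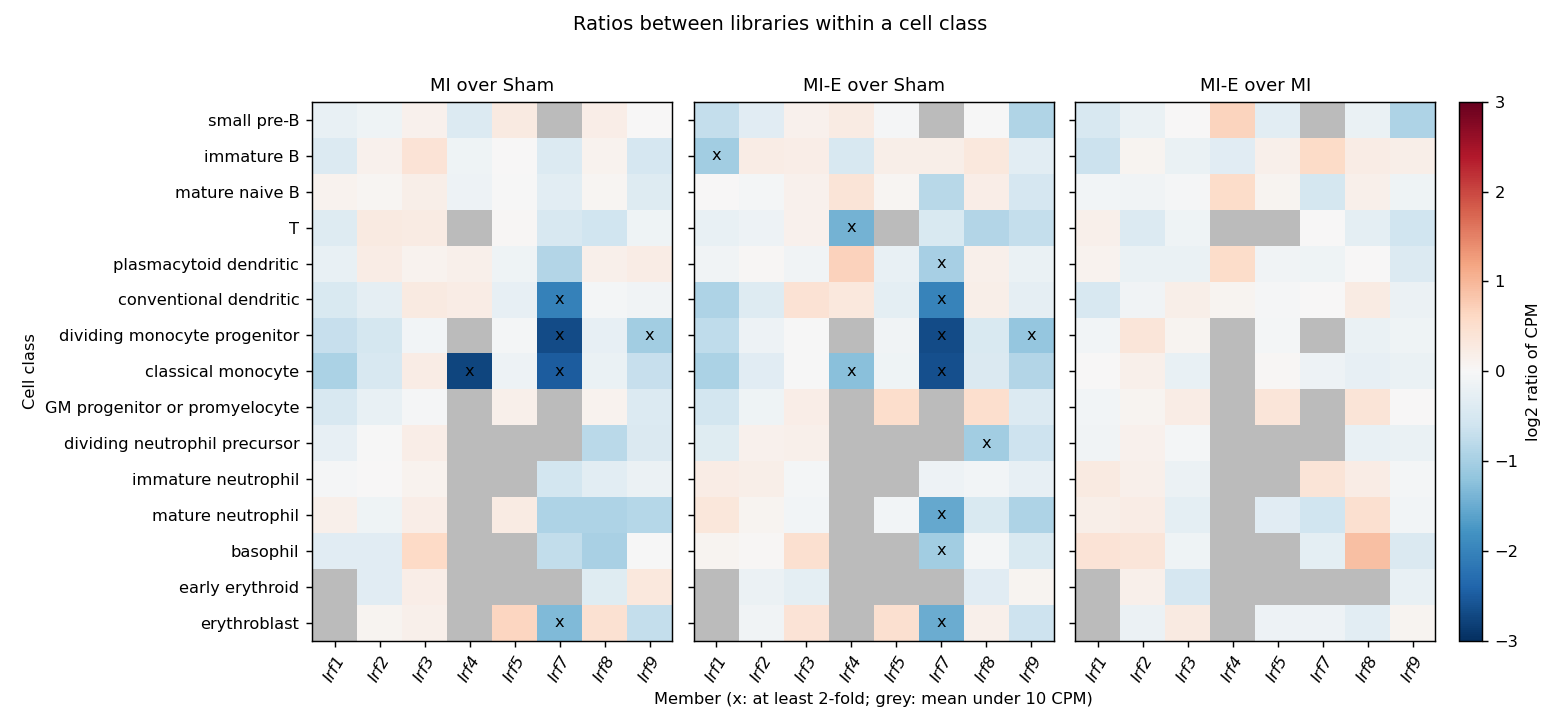
Log2 ratio of CPM between libraries for each member (columns) in each of the 15 classes (rows), with x on pairs at least 2-fold apart and grey where the mean of the 2 libraries was under 10 CPM. The Irf7 column is blue in monocyte-like and dendritic-like rows of MI over Sham and MI-E over Sham (log2 -2.50 and -2.64 in classical monocyte-like cells), and MI-E over MI has no x.

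Irf7, the amplifier of type I interferon, was lower in MI than in Sham through the monocyte and dendritic classes. In classical monocyte-like cells it was 137 CPM in Sham (1257 UMIs), 24.4 CPM in MI (380 UMIs) and 22.1 CPM in MI-E (246 UMIs). That is 5.64-fold lower in MI (5.03 to 6.35). After thinning, 11.2% (9.94 to 12.5) of these cells in Sham held an Irf7 UMI against 2.62% (2.12 to 3.20) in MI and 2.01% (1.51 to 2.61) in MI-E. The unthinned shares were 30.7%, 9.28% and 7.75%. In granulocyte-monocyte progenitor or promyelocyte-like cells, the class lowest in Irf7, the thinned shares were 0.803%, 0.0891% and 0.201% (median depths of 15834 to 18705 against 3572 to 4078 UMIs before thinning).

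Irf7 in dividing monocyte progenitor-like cells was 33.4 CPM in Sham, 5.17 CPM in MI and 5.23 CPM in MI-E, 6.46-fold lower in MI (4.95 to 8.52). Here 96.7% of Sham cells lay in the sub-cluster led by Ass1, Klf4 and Lgals1, with 34.2 CPM of Irf7. Most MI cells lay in 3 others, all with C1galt1c1 among their leading genes, with 3.77 to 8.86 CPM. In the whole class the neutrophil genes S100a8 and S100a9 summed to 2302, 26490 and 13831 CPM in Sham, MI and MI-E. The haemoglobin genes Hbb-bs and Hba-a1 summed to 451, 238 and 129 CPM and B lineage markers to 524, 135 and 227 CPM. From Sham to MI the haemoglobin and B lineage sums fell with Irf7, while the S100a8 and S100a9 sum rose. Their part was not tested. In conventional dendritic-like cells Irf7 was 188, 46.1 and 46.6 CPM, 4.08-fold lower in MI (3.07 to 5.51). Macrophage markers summed to 474 CPM in the Sham class and 167 CPM in MI, and classical monocyte markers to 5974 and 3770.3 CPM. They moved with Irf7, and their part was not tested. The Irf7 difference lay in the Cd209a sub-cluster, at 211 CPM in Sham and 43.3 CPM in MI. In the Ifi205 and Batf3 sub-cluster Irf7 was 67.1 CPM in Sham and 54.0 CPM in MI, with overlapping intervals. When the Irf genes were allowed to shape the clusters, the dendritic log2 ratio was -0.60 in place of -2.03. In erythroblast-like cells Irf7 was 50.7, 20.1 and 18.1 CPM, 2.52-fold lower in MI (1.74 to 3.76), where the median log2 ratio of all genes tested was 0.46. Marker sums of other cells in the erythroblast class moved both ways between Sham and MI. B lineage markers were 1348 and 370.1 CPM, conventional dendritic markers 540.1 and 271 CPM, plasmacytoid dendritic markers 334 and 243 CPM and plasma cell markers 247 and 46.3 CPM. Classical monocyte markers were 284 and 706 CPM and neutrophil markers 1158 and 3723 CPM. Their part in the Irf7 result was not tested.

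Plasmacytoid dendritic-like cells, the main producers of type I interferon, had Irf7 at 140.2 CPM in Sham, 76.2 CPM in MI and 69.99 CPM in MI-E. MI was 1.84-fold lower (1.5 to 2.26), short of the fold used. Mature neutrophil-like cells had 35.0, 18.5 and 12.2 CPM. Of the Sham cells 97.8% were in the sub-cluster led by Slc7a11 and G0s2, while 60.1% of MI cells were in the one led by Retnlg and Stfa2l1 and 37.1% in the one led by Cxcl2 and Il1b. Leading genes of the Sham sub-cluster included Ly6g, Mmp8 and Ltf, markers used for immature neutrophils, beside Retnlg, Mmp9 and Il1b, used for mature ones. The mature marker Cxcr2 was among the leading genes of both MI sub-clusters but not of the Sham one. The part of maturity within the class was not tested. In that class B lineage markers summed to 621, 99.97 and 177 CPM and haemoglobin genes to 1907, 854 and 461 CPM. Both were highest in Sham, as Irf7 was. From MI to MI-E the haemoglobin genes fell with Irf7, while the B lineage markers rose. Their part was not tested. T-like cells had 32.3, 23.3 and 23.6 CPM, and their intervals overlapped. Sham was the highest library for Irf7 in each of these classes. MI-E was also below MI in mature neutrophil-like cells (ratio 0.657, 0.461 to 0.925).

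**Figure D5:**
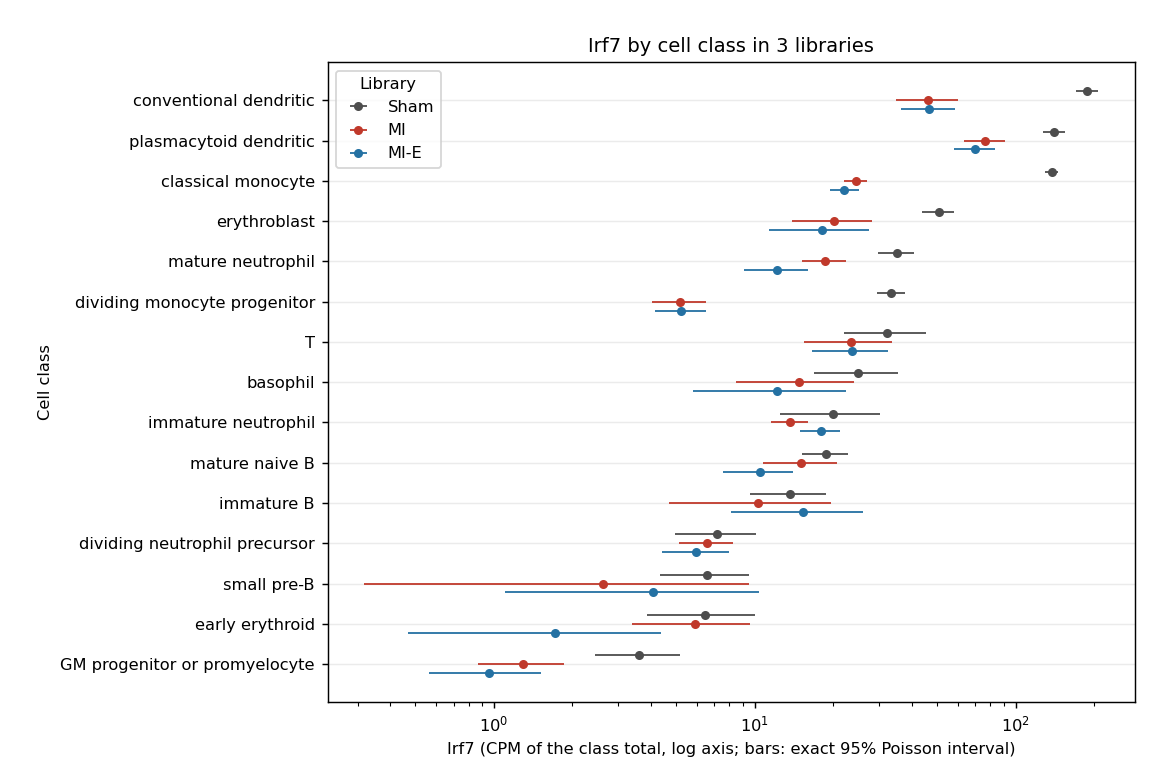
Irf7 in CPM of the class total (log axis) in 15 classes ordered by the Sham level, with 1 point per library and exact 95% Poisson intervals. In classical monocyte-like cells Sham stands at 137 CPM, apart from MI at 24.4 CPM and MI-E at 22.1 CPM; in immature B-like cells the 3 intervals overlap.

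The Sham and MI cells of the classical monocyte class lay almost wholly in different sub-clusters. Of 2431 classical monocyte-like cells of Sham, 99.6% were in 1 sub-cluster led by Ifi27l2a, Lyz2 and Ifitm3, interferon-induced genes and lysozyme. Nearly all MI cells lay in 4 others, led by Saa3, Vcan or S100a4, all with Fn1 among their 10 leading genes. Summed S100a8 and S100a9, abundant neutrophil genes, were 1780 CPM in Sham monocyte-like cells and 19156 CPM in MI. Haemoglobin genes Hbb-bs and Hba-a1 summed to 1103 CPM in Sham and 385 CPM in MI. Markers of plasmacytoid dendritic cells summed to 470.5 CPM in Sham and 155 CPM in MI over 10 genes, none of them at 0. Of that sum 268 CPM in Sham and 60.8 CPM in MI were Bst2, which is also an interferon-stimulated gene (below). The haemoglobin and plasmacytoid sums fell with Irf7 in the monocyte class, while the S100a8 and S100a9 sum rose. Their part in the result was not tested. Siglech, the defining plasmacytoid marker, was 4.15 CPM in Sham and 1.15 CPM in MI monocyte-like cells against 1805 CPM in Sham plasmacytoid dendritic-like cells, which had 140.2 CPM of Irf7.

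Irf9, the DNA-binding partner of Stat2, was 105 CPM in Sham, 65.5 CPM in MI and 56.9 CPM in MI-E in classical monocyte-like cells (1.61-fold lower in MI, 1.47 to 1.76). In dividing monocyte progenitor-like cells it was 68.4, 33.3 and 30.6 CPM, 2.06-fold lower in MI (1.81 to 2.33), and in mature neutrophil-like cells, with the sub-clusters and other-cell RNA given above, 72.0, 40.1 and 37.6 CPM. Irf1 was 61.4, 31.6 and 31.8 CPM in classical monocyte-like cells, 1.94-fold lower in MI (1.72 to 2.20). Irf2 in the same cells was 185, 132 and 146 CPM. Irf3 was 40.2, 47.0 and 40.1 CPM and Irf5, as above, differed by 1.12-fold (1.05 to 1.19). Of the 8 members in this class, 7 were lower in MI and 1 higher, with a median log2 ratio of -0.59 against 0.01 over all genes tested. In mature naive B-like cells 4 were lower and 4 higher, with a median of 0.03 against 0.13.

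Irf4 in classical monocyte-like cells was low in every library: 24.3 CPM in Sham (222 UMIs), 3.59 CPM in MI (56 UMIs) and 10.2 CPM in MI-E (114 UMIs). MI was 6.76-fold lower than Sham (5.02 to 9.24). The 12 B lineage markers summed to 440.2, 84.3 and 138 CPM in these cells and thus moved with it. Irf4 came to 5.51%, 4.26% and 7.41% of that B marker sum. In the B classes it was lower, at 1.03% to 1.65% in small pre-B-like cells and 0.342% to 0.479% in mature naive B-like cells. In granulocyte-monocyte progenitor or promyelocyte-like cells it was 0.394% to 0.678%. In conventional dendritic-like cells it was higher than in the monocyte class, at 5.90%, 9.51% and 11.5% in Sham, MI and MI-E. Conventional dendritic markers summed to 441, 152 and 212 CPM in the monocyte class and also moved with Irf4. The part of B cell or dendritic cell RNA in the monocyte value was not tested. In MI and MI-E the highest Irf4 within the class lay in the sub-cluster led by S100a4, at 17.0 CPM (9.91 to 27.2) and 47.5 CPM (31.3 to 69.2). By marker genes, the next closest class of that sub-cluster was plasma cell. The part of plasma cell RNA was not tested.

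The pathway around the family was read from 6 lists in classical monocyte-like cells, MI over Sham, where 3.68% of all genes tested were at least 2-fold lower and 2.79% higher. Of 39 interferon-stimulated genes 32 were measured: 32 were lower, 31 of them past 2-fold, with a median log2 ratio of -1.92. Ifi27l2a, an interferon-induced mitochondrial protein, had 3832 CPM in Sham and 422 CPM in MI, and Bst2 (tetherin) 268 and 60.8 CPM. Of 12 interferon receptor and JAK-STAT genes 11 were measured, with 7 lower and 4 higher and a median of -0.18. Among those past 2-fold were Stat2, the partner of Irf9, at 67.9 CPM in Sham and 30.1 CPM in MI, and Socs3, a feedback inhibitor, at 3.61 CPM in Sham and 29.9 CPM in MI. Ifnar1 was 74.0 CPM in Sham and 80.6 CPM in MI.

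Of 19 interferon gamma and Irf1 target genes 15 were measured and 15 were lower, 7 past 2-fold, with a median of -0.94. In MI-E over MI 10 of them were measured, so the filter limits this count in the same way. B2m, the light chain of MHC class I, had 1824 and 776 CPM. The sensors and kinases upstream of Irf3, Irf5 and Irf7 did not share that direction: 8 of 18 measured genes were lower and 10 higher, with a median of 0.05. Only Ikbke, an Irf3 and Irf7 kinase, was past 2-fold, at 21.2 CPM in Sham and 57.1 CPM in MI. Myd88, the Toll-like receptor adaptor, was 80.0 and 113 CPM. Of 9 measured partners and cofactors, 3 were lower and 6 higher. Spi1, the partner of Irf8 and Irf4, was 428 and 425 CPM, and past 2-fold were Batf3 (24.6 and 4.61 CPM) and Irf2bpl (17.9 and 53.3 CPM). Of the 9 Irf8 targets of the mononuclear phagocyte lineage, 8 were lower and 1 higher, with a median of -0.59 and 1 past 2-fold, Ly86 at 398 and 176 CPM.

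Outside the monocyte class the interferon-stimulated list was lower to different extents in MI. Its median log2 ratio was -1.41 in conventional dendritic-like, -1.37 in dividing monocyte progenitor-like and -1.22 in mature neutrophil-like cells, where the medians of all genes tested lay between -0.03 and 0.12. In small pre-B-like cells it was -0.72, in plasmacytoid dendritic-like cells -0.36 and in mature naive B-like cells -0.16, where the medians of all genes tested lay between 0.05 and 0.13. In erythroblast-like cells it was -0.97 against 0.46 for all genes tested. In immature B-like cells it was -0.64 against 0.08 and in immature neutrophil-like cells -0.57 against 0.03. In the remaining classes it lay between -0.40 and -0.24. Irf7 in small pre-B-like cells was 6.56 CPM in Sham and 2.63 CPM in MI, under the minimum of 10 CPM for comparison. In classical monocyte-like cells of MI-E over Sham 32 of 32 measured genes of the list were lower, with a median of -1.81. The limit of the filter holds here too. Of MI-E over MI 11 were lower and 14 higher, with a median of 0.03 (0.08 over all genes tested). Other classes differed in that comparison. In plasmacytoid dendritic-like cells 15 of 17 were lower (-0.33 against 0.06). In conventional dendritic-like cells 23 of 28 were lower (-0.24 against 0.03), with 0 past 2-fold lower and 3 higher. In erythroblast-like cells 10 of 15 were lower (-0.29 against 0.05). In dividing monocyte progenitor-like cells 12 of 14 were higher (0.14 against 0.09).

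Between MI-E and Sham, 12 of 101 pairs were at least 2-fold lower and 0 higher, against 1.71% and 3.33% of 108155 pairs of all genes. MI-E and MI are each set against the same Sham library here, so the values stand side by side and do not support each other. Irf7 accounted for 7 of the 12: classical monocyte-like (6.22-fold, 5.42 to 7.16), dividing monocyte progenitor-like (6.37-fold), conventional dendritic-like (4.04-fold), mature neutrophil-like (2.88-fold, 2.09 to 4.02), erythroblast-like (2.80-fold), basophil-like (2.05-fold) and plasmacytoid dendritic-like cells (1.64 to 2.46, at the threshold). The basophil interval, 0.978 to 4.68 on 31 and 10 UMIs, included no difference. The other 5 were Irf4 in classical monocyte-like and T-like cells, Irf9 in dividing monocyte progenitor-like cells, Irf1 in immature B-like cells and Irf8 in dividing neutrophil precursor-like cells.

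Irf1 in immature B-like cells was 77.9 CPM in Sham (212 UMIs), 58.3 CPM in MI (51 UMIs) and 37.5 CPM in MI-E (32 UMIs), 2.08-fold lower in MI-E than in Sham (1.43 to 3.11). Irf4 in T-like cells rested on 17, 2 and 10 UMIs. Irf8 in dividing neutrophil precursor-like cells was 2.05-fold lower in MI-E (1.60 to 2.62), but turned to a log2 ratio of 0.12 when each cell was given equal weight, so its direction depends on the way cells are summed.

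Several of these calls depended on how cells were chosen. Irf9 in dividing monocyte progenitor-like cells was past 2-fold in 4 of 11 alternatives for MI over Sham and in 9 of 11 for MI-E over Sham. Irf7 in conventional dendritic-like cells was past it in 9 of 12 for each comparison, in plasmacytoid dendritic-like cells of MI-E in 8 of 12 and in basophil-like cells in 7 of 12. Irf1 in immature B-like cells was past it in 7 of 10 and Irf4 in T-like cells in 9 of 12. Irf7 in classical monocyte-like and dividing monocyte progenitor-like cells was past it in every alternative that gave a value, in both comparisons.

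Between MI-E and MI, 0 of 97 pairs were at least 2-fold lower or higher, against 0.889% lower and 1.27% higher of 109076 pairs of all genes. Irf7 in classical monocyte-like cells differed by a ratio of 0.907 (0.769 to 1.07), and in conventional dendritic-like cells by 1.01 (0.702 to 1.46). Some smaller differences had counting intervals that left out 1; these intervals are not adjusted for the number of pairs. Irf4 was higher in MI-E in small pre-B-like cells (ratio 1.58, 1.32 to 1.91) and in mature naive B-like cells (1.46, 1.18 to 1.82). Both were higher in all 11 alternatives that gave a value for them. In classical monocyte-like cells Irf4 was 2.85 times the MI level (2.05 to 4.0) at a mean under 10 CPM. Irf8 was higher in MI-E in granulocyte-monocyte progenitor or promyelocyte-like (1.32, 1.27 to 1.37) and immature B-like cells (1.16, 1.03 to 1.31), and lower in classical monocyte-like (0.848, 0.809 to 0.889) and dividing monocyte progenitor-like cells (0.877, 0.848 to 0.906). The Mpo-led sub-cluster, rich in Irf8 (above), made up more of the progenitor class in MI-E than in MI. Its part in that ratio was not tested. In small pre-B-like cells the Irf9 ratio was below 1 (0.530, 0.339 to 0.820).

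The smaller classes held further levels, with no comparison by fold. NK-like cells had Irf8 at 646 CPM in Sham (128 cells), 318 CPM in MI (176 cells) and 356 CPM in MI-E (279 cells), while T-like cells had 51.4, 34.1 and 28.0 CPM. Irf1 in NK-like cells was 149.8, 146 and 156 CPM. Non-classical monocyte-like cells had only 13, 4 and 1 UMIs of Irf7, for 48.0 CPM (25.6 to 82.1), 15.1 CPM (4.12 to 38.7) and 4.15 CPM (0.105 to 23.1), with the Sham and MI intervals overlapping. They had Irf2 at 266, 197 and 253 CPM. In macrophage-like cells Irf4 was 41.7, 12.98 and 52.0 CPM and Irf7 107, 38.9 and 32.3 CPM. Stem and multipotent progenitor-like cells had Irf8 at 160.4, 249.9 and 104 CPM. It was highest in the sub-cluster led by Dntt, Il12a and Flt3 (45, 55 and 62 cells), at 419, 809 and 302 CPM. Siglech was 10.7, 39.3 and 21.7 CPM in that class. Like Irf8 it was highest in MI, but it was lowest in Sham, while Irf8 was lowest in MI-E. The part of Siglech-bearing cells was not tested.

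For each member, the 3 genes with the most similar levels were taken from the whole table by Pearson correlation of log2(CPM + 10) over 45 class and library sums. These sums share libraries and are not independent, so the correlations only describe likeness. Irf7 was most like Slfn5 (r = 0.788), Pip4k2a (0.784) and Ifnar2 (0.770), and Irf9 most like Ifi27l2a (0.834), Parp14 (0.822) and Trim30d (0.811). Irf8 was nearest to Ly86 (0.948), Pld4 (0.927) and Scpep1 (0.924), and Irf5 to Ctss (0.952), Pld4 (0.938) and Dusp22 (0.9351). Irf4 was nearest to Prkce (0.933), Bach2 (0.928) and Arl5c (0.912). Irf1 was nearest to Clec2d (0.913), Trim12a (0.904) and H2-D1 (0.902), Irf2 to Abcg1 (0.921), Map3k14 (0.9201) and Rnf114 (0.912), and Irf3 to Tigd2 (0.966), Nfrkb (0.965) and Chd6 (0.964).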

How the data were processed

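Per the submitters' processing notes the deposited matrices were made with Cell Ranger 5.0.1 on mm10, and their values are raw UMI counts per gene and cell, as deposited, with no row outside the gene list. A barcode entered with 300 or more genes, 500 or more UMIs and a mitochondrial share of 10% or less (25053 in Sham, 23455 in MI, 22506 in MI-E). Doublets were removed with scrublet in scanpy 1.11.5 (15.1%, 12.8% and 12.8%). The 3 libraries were clustered together (2000 variable genes without the Irf members, 40 components, 20 neighbours, Leiden resolution 1) and each family of clusters again. Clusters were named from fixed marker lists; the scoring of those markers and the division score of 7 that splits dividing cells were chosen after the clusters were seen. Clusters left unnamed held 3.05% of cells. UMI counts were summed per class and library and divided by the class total (CPM). Ratios carry exact conditional binomial intervals and levels exact Poisson intervals, checked on simulated counts. A pair of member and class is past the fold at 2-fold with a mean of at least 10 CPM. Shares of cells used cells thinned to 1000 UMIs, with shallower cells left out.

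All 8 members are named in all classes of at least 200 cells per library, with the 3 genes most like each (among genes with at least 50 CPM in a class and library). The members and the 6 gene lists were chosen with earlier results of these data known. Alternatives covered the cell filter, doublets, resolution, joint clustering, scaling (median of ratios; TMM in edgeR 4.0.16), weighting, thinning and the thresholds. Counting is from the 3' end; the sources used here do not say how reads of overlapping genes were counted. Some items are not reported here.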

Additional observations from a re-analysis of the deposited data

How the results depend on the processing

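The count of pairs of member and class at least 2-fold lower in MI than in Sham (6) was 11 with the looser cell filter, with libraries clustered apart and with cells thinned to 1000 UMIs, 14 without doublet removal, 10 with Irf members among the variable genes, 19 without a CPM minimum and 18 at a fold of 1.5. The count higher (0) was 1 with libraries apart, with Irf members among the variable genes and without a minimum, and 2 at 1.5-fold. For MI-E over Sham, lower pairs (12) came to 23 without a minimum and 24 at 1.5-fold, and higher pairs (0) to 2 with libraries apart and 1 under each of those thresholds. For MI-E over MI, lower pairs (0) came to 1 without doublet removal, 2 with equal weight of cells, with thinning and without a minimum, and 4 at 1.5-fold. Higher pairs (0) came to 2 with the looser filter and at 1.5-fold, 4 with thinning, 5 without a minimum, and 1 at resolution 2, with libraries apart, with Irf members variable and with equal weight. Irf7 in classical monocyte-like cells kept its direction in all 12 alternatives: MI over Sham had a log2 ratio of -2.31 at resolution 0.5 and -2.29 with thinning, and MI-E over MI was -0.41 with thinning (-0.14 otherwise reported). Irf8 in dividing neutrophil precursor-like cells, MI-E over Sham, reversed from -1.03 to 0.12 with equal weight of cells. The cause was not tested.

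Median-of-ratios and TMM scaling shifted log2 ratios most in erythroblast-like cells, by -0.42 and -0.46 (MI over Sham) and by -0.48 and -0.55 (MI-E over Sham). No paired analysis was possible because each group has 1 library. That also leaves no library to leave out and no measure of the spread between animals.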

Other observations

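Unnamed clusters held high levels of the lineage factors. A cluster led by Ighg2b, Ighg2c and Jchain, genes of antibody-secreting cells, matched the plasma cell markers but fell in the erythroid group of clusters and so was left unnamed. It had 15 cells in Sham, under the minimum of 20 for a level, and 23 each in MI and MI-E. Irf4 was 147 CPM (96.7 to 213, exact Poisson interval) in MI and 571 CPM (468 to 690) in MI-E. Irf4 is required for plasma cell formation, and the MI-E value was above the small pre-B-like level of that library (371 CPM). A cluster led by Bex6, Gria3 and Slc4a8 had Irf8 at 1242 CPM in Sham (30 cells), 1857 CPM in MI (42 cells) and 1589 CPM in MI-E (37 cells), with Irf4 between 0 and 3.57 CPM. It matched the plasmacytoid dendritic markers, those of the class highest in Irf8, but fell in the progenitor group of clusters and so was left unnamed. A B lineage cluster led by Fam129c, Cd72 and Spib had Irf4 at 156, 145 and 164 CPM and Irf8 at 416, 593 and 493 CPM in Sham, MI and MI-E, with Irf4 between the levels of the small pre-B-like and immature B-like classes. These clusters were singled out after their values were seen.

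Inside the erythroblast-like class, 1 sub-cluster led by Rsad2, Isg15 and Hbb-bs had Irf4 at 55.9 CPM in Sham (158 cells), 37.4 CPM in MI (24 cells) and 7.12 CPM in MI-E (33 cells). Over the whole class B lineage markers summed to 1348, 370 and 602 CPM in Sham, MI and MI-E. They were highest in Sham, as Irf4 was, but rose from MI to MI-E while Irf4 fell. The part of B cell RNA was not tested. In the sub-clusters led by Tmcc2, Xpo7 and Bpgm and by Rhd, Hemgn and Slc4a1, Irf4 was between 0 and 1.01 CPM. Irf7 in the latter sub-cluster was 53.7 CPM in Sham, 28.5 CPM in MI and 20.5 CPM in MI-E.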
